A study of Mus musculus with 8 samples.

Results

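Wnt proteins are held in check outside the cell by a small set of secreted proteins, and the transcripts of these modulators were followed in hearts with and without Mettl3 in heart muscle cells. The 6 genes were taken from the expression table by their symbols, Dkk3, Sfrp1, Sfrp2, Frzb, Wif1 and Axin2, out of 23045 genes listed. The first 5 encode secreted proteins. Axin2 encodes a cytoplasmic scaffold protein and is a widely used target gene of the pathway, so it reads out signalling and is not itself secreted. All 6 genes were present and passed the filter on low values (a mean of at least 1 over the 8 libraries).

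Stranded total RNA-seq had been done on hearts of 4 WT and 4 Mettl3 KO samples. Both groups carried Mettl3 flanked by loxP sites on both alleles (Mettl3 lox/lox). The Mettl3 KO mice also carried αMHC-MerCreMer, a tamoxifen-activated Cre recombinase driven by the promoter of the α myosin heavy chain gene, which is active in cardiomyocytes, whereas the WT mice did not. Per the methods of the study, mice of both groups were 10 to 16 weeks old and were given tamoxifen at 100 µg per g of body weight on 7 days. The Cre is not made in the other cell types of the heart, whose RNA is also in these tissue samples, and which parts of the heart were taken is not given in the sources used here. The labels number the samples of each group from 1 to 4 without saying that each is a separate animal, so the p-values measure the spread between these samples.

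In canonical signalling, a Wnt ligand joins a Frizzled receptor to the co-receptor Lrp5 or Lrp6, the complex that marks β-catenin for destruction is switched off, and β-catenin activates target genes together with TCF/LEF factors. SFRP proteins, among them Frzb, carry a cysteine-rich domain like that of the Frizzled receptors and bind Wnt ligands, and Wif1 binds Wnt ligands through a domain of another type. Dkk3 is the divergent member of the Dickkopf family, whose classic members block the co-receptors. In the heart, fibroblasts are a known source of SFRP proteins.

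The values are normalized read counts, the unit used below unless another is named. Their totals ran from 2839589 to 2881849 in WT and from 2840184 to 2916986 in Mettl3 KO libraries. Read numbers worked back from the steps between low values were 2731596 to 3061025 in WT and 2631903 to 3052839 in Mettl3 KO libraries. A gene at 0 allowed up to 3 reads, a value of 2.78 to 3.33 depending on the library, which covers counting error only. Mettl3 was at 105, 133, 118 and 107 in WT libraries 1 to 4 and at 74, 68, 69 and 78 in Mettl3 KO libraries 1 to 4, a ratio of 0.624 between the group means (log2 fold change -0.67, limma adjusted p = 0.000184). Esr1, whose ligand-binding part is in the transgene, was at 13 to 20 in WT and 693 to 851 in Mettl3 KO libraries, so all 8 libraries matched their labels. The cardiomyocyte markers summed to 90581 to 97179 and 87923 to 98408, and of these 8 genes Ryr2 alone passed, lower at 7975 to 9017 against 9666 to 10427 in WT libraries (log2 fold change -0.23, limma adjusted p = 0.000137). Of 20313 genes tested with limma, 7.91% passed an adjusted p of 0.05, 4.72% higher and 3.19% lower in Mettl3 KO hearts, and the median log2 fold change was -0.01.

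Dkk3, Sfrp1, Sfrp2, Frzb and Wif1 were each higher in Mettl3 KO hearts, by 1.66-fold to 3.16-fold, and Axin2 had nearly equal means in both groups. Thus 5 of 6 genes passed the test, all of them higher, against 4.72% of all genes tested. Their 4 without overlap between the groups (Dkk3, Sfrp1, Sfrp2 and Frzb) compare with 6.46% of all genes tested that were higher in Mettl3 KO hearts without overlap. The median log2 fold change of the 6 genes was 0.90. These 6 genes were chosen with earlier results of these data known, so their counts beside all genes are a description and no test. The Wif1 call was the weakest of the 5 and was lost under most other ways of processing. In bulk RNA, more cells of a type and more RNA per cell cannot be told apart.

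**Figure D1:**
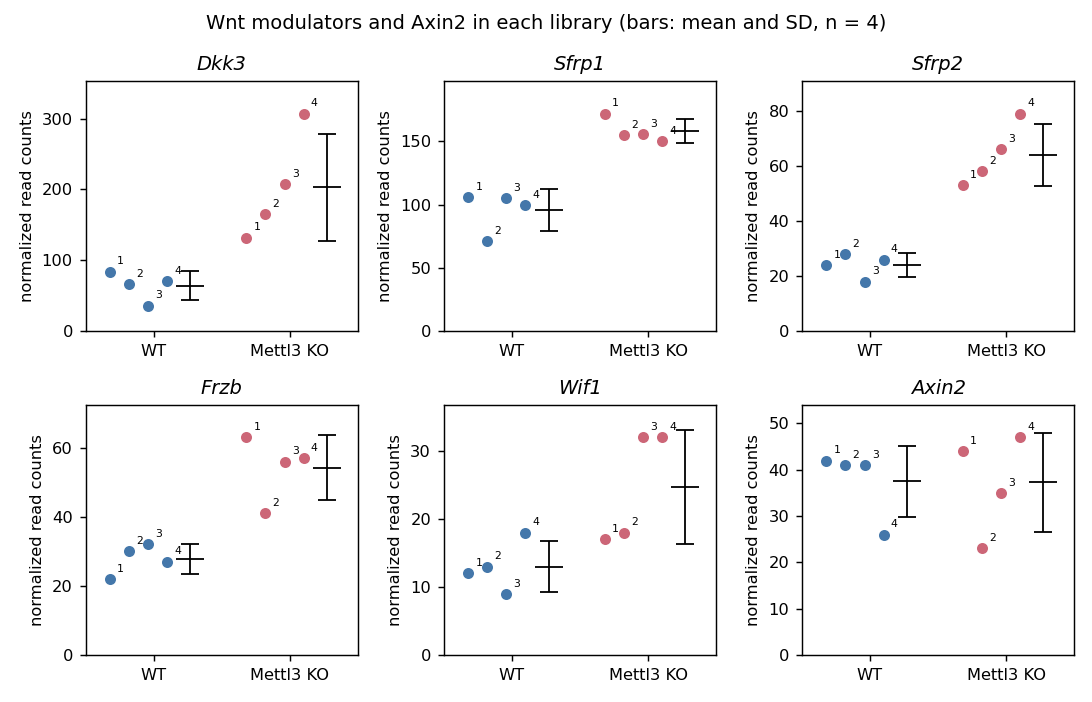
Normalized read counts (vertical axes, linear from 0) of the 6 genes in the 4 WT (blue) and 4 Mettl3 KO libraries (red). Numbers beside points are replicate numbers, and the black marks give the mean and SD. Dkk3, Sfrp1, Sfrp2 and Frzb do not overlap between the groups, whereas Wif1 (9 to 18 and 17 to 32) and Axin2 (26 to 42 and 23 to 47) do.

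Dkk3 (ENSMUSG00000030772, mm39 chromosome 7, 111715224 to 111758264, minus strand) had the largest change of the 6 genes with genotype as the only term, though not with the atrial index as covariate, where it was 0.66 and the smallest of the 4 changes called. WT libraries 1 to 4 held 84, 66, 36 and 71 normalized read counts and Mettl3 KO libraries 1 to 4 held 132, 165, 208 and 307. WT library 3 was the lowest and Mettl3 KO library 4 the highest, and every Mettl3 KO library lay above every WT library. The mean rose 3.16-fold, from 64.3 ± 20.3 to 203 ± 76.0 (SD, n = 4 each), which on the log2(value + 1) scale was a change of 1.64 (95% interval 1.20 to 2.08, SE 0.21, limma adjusted p = 2.31e-05). The SD of 76.0 in Mettl3 KO hearts was the largest among the 6 genes.

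Sfrp2 (ENSMUSG00000027996, chromosome 3, 83673628 to 83681623, plus strand), a Wnt-binding protein of the SFRP family, came next. It was at 24, 28, 18 and 26 in WT libraries and at 53, 58, 66 and 79 in Mettl3 KO libraries. The lowest Mettl3 KO value was well above the highest WT value, and WT library 3 and Mettl3 KO library 4 were again the ends of the range. The mean rose 2.67-fold, from 24.0 ± 4.32 to 64.0 ± 11.3 (SD, n = 4 each), a log2 fold change of 1.38 (95% interval 1.03 to 1.73, SE 0.17, limma adjusted p = 1.45e-05).

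Sfrp1 (ENSMUSG00000031548, chromosome 8, 23901518 to 23939648, plus strand), a close relative of Sfrp2, was at 106, 71, 105 and 100 in WT libraries and at 172, 155, 156 and 150 in Mettl3 KO libraries. Here Mettl3 KO library 1 was the highest, WT library 2 stood below the other WT libraries, and the groups did not overlap. The Mettl3 KO values lay closer together than those of the other genes relative to their mean. The mean rose 1.66-fold, from 95.5 ± 16.5 to 158 ± 9.54 (SD, n = 4 each), a log2 fold change of 0.74 (95% interval 0.51 to 0.97, SE 0.11, limma adjusted p = 0.000120).

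Frzb (ENSMUSG00000027004, chromosome 2, 80242314 to 80277969, minus strand), a secreted Frizzled-related protein first known from cartilage, was at 22, 30, 32 and 27 in WT libraries and at 63, 41, 56 and 57 in Mettl3 KO libraries. Mettl3 KO library 1 was the highest, as for Sfrp1, and Mettl3 KO library 2 the lowest of its group, still above all WT libraries. The mean rose 1.95-fold, from 27.8 ± 4.35 to 54.3 ± 9.36 (SD, n = 4 each), a log2 fold change of 0.94 (95% interval 0.59 to 1.29, SE 0.17, limma adjusted p = 0.000881).

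Wif1 (ENSMUSG00000020218, chromosome 10, 120869865 to 120936555, plus strand), Wnt inhibitory factor, had the lowest values of the 6 genes in WT hearts. It was at 12, 13, 9 and 18 in WT libraries and at 17, 18, 32 and 32 in Mettl3 KO libraries. Mettl3 KO libraries 1 and 2 lay at or below the highest WT library, so the groups overlapped, and libraries 3 and 4 made up most of the difference. The mean was 13.0 ± 3.74 in WT and 24.8 ± 8.38 in Mettl3 KO hearts (SD, n = 4 each), a log2 fold change of 0.86 (95% interval 0.31 to 1.41, SE 0.26, limma adjusted p = 0.0491). By an exact permutation test of the 8 libraries p was 0.0857, where the smallest p that 4 against 4 allows is 0.0286. The limma call did not hold without WT library 1, 2 or 3 or without Mettl3 KO library 2, 3 or 4, and in all it was lost in 15 of 22 alternatives.

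Axin2 (ENSMUSG00000000142, chromosome 11, 108811175 to 108841609, plus strand), the scaffold protein of the destruction complex that β-catenin itself induces, was at 42, 41, 41 and 26 in WT libraries and at 44, 23, 35 and 47 in Mettl3 KO libraries. WT library 4 stood below the 3 other WT libraries, and the range of the WT group lay within that of the Mettl3 KO group. The means were 37.5 ± 7.68 and 37.3 ± 10.8 (SD, n = 4 each), a log2 difference of -0.03 (limma adjusted p = 0.957, SE 0.21). The 95% interval of -0.46 to 0.39 leaves room for a change of either sign, and the sign turned when single libraries were left out.

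**Figure D2:**
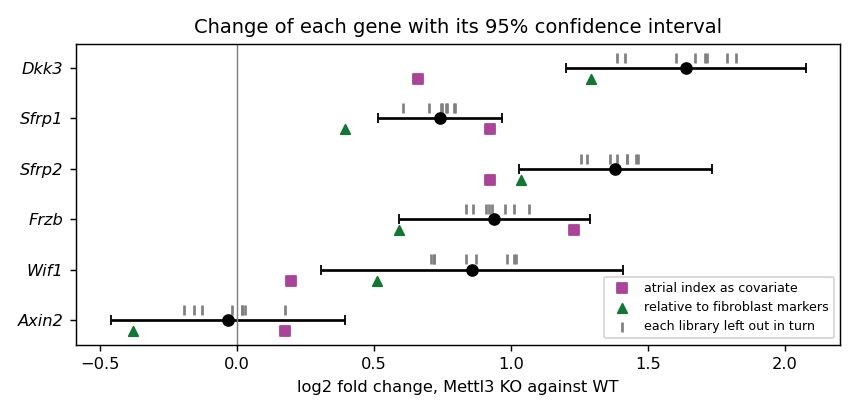
Log2 fold change on the log2(value + 1) scale, Mettl3 KO against WT (horizontal axis), with black points for the limma estimate and bars for its 95% interval. Grey ticks leave out each library in turn, purple squares use the atrial index as covariate and green triangles are relative to the fibroblast markers. The intervals of Dkk3, Sfrp1, Sfrp2, Frzb and Wif1 lie above 0, that of Axin2 spans 0, and the Dkk3 estimate of 1.64 moves to 0.66 with the atrial index.

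Levels of different genes were set side by side per kilobase of exon. In WT hearts Sfrp1 (21.8 normalized read counts per kb of exon, range 16.2 to 24.2) and Dkk3 (19.1, range 10.7 to 25.0) were the most abundant. Sfrp2 (11.1, range 8.36 to 13.0), Frzb (8.57, range 6.80 to 9.89), Axin2 (6.81, range 4.72 to 7.63) and Wif1 (5.36, range 3.71 to 7.42) followed. Each gene overlapped its neighbours in this order. In Mettl3 KO hearts Dkk3 came first (60.4, range 39.3 to 91.4), ahead of Sfrp1 (36.2, range 34.3 to 39.3) and Sfrp2 (29.7, range 24.6 to 36.7). Frzb (16.8, range 12.7 to 19.5), Wif1 (10.2, range 7.00 to 13.2) and Axin2 (6.77, range 4.18 to 8.54) came after them. Between neighbours the ranges parted only between Sfrp2 and Frzb, while Dkk3 and Sfrp1 met at 39.3. Axin2 and Wif1 changed places between the genotypes, and the ranges of this pair overlapped in both.

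**Figure D3:**
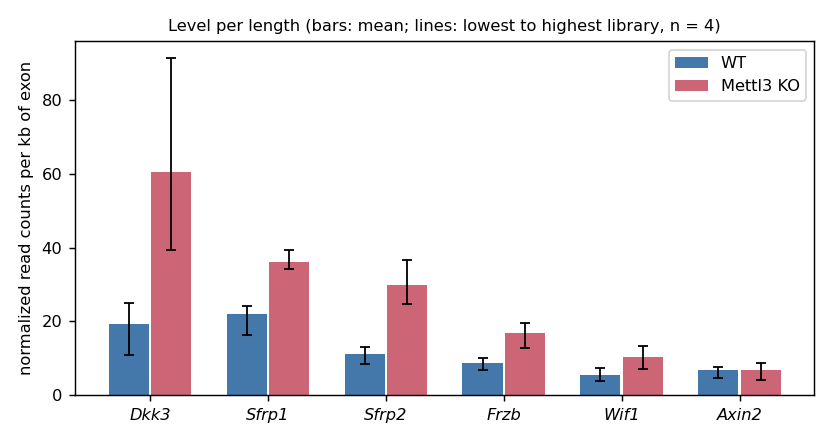
Mean normalized read counts per kb of exon (vertical axis, linear from 0) in WT (blue bars) and Mettl3 KO hearts (red bars), with lines from the lowest to the highest of 4 libraries. Dkk3 at 60.4 is the highest bar in Mettl3 KO hearts and Sfrp1 at 21.8 the highest in WT hearts.

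Promoters were examined because the genes moved together while the pathway's target Axin2 did not. Sequences of the 250 bases before the transcription start were taken from RefSeq (GRCm38.p6), where 4 of the 6 genes had an entry, Sfrp2, Frzb, Wif1 and Axin2. They were searched on both strands for the core of the TCF/LEF motif, CTTTGA or its reverse complement TCAAAG, which 13.8% of 32851 mouse promoters of this length held. The Frzb promoter (chr2:80447397-80447646, minus strand) had 1 match on the antisense strand, beginning 95 bases before the start and shown in capitals. Sfrp2 (chr3:83766071-83766320, plus strand), another of the genes that were higher, and Axin2 (chr11:108920099-108920348, plus strand) are shown for comparison and held none in this window, and neither did Wif1.
Frzb: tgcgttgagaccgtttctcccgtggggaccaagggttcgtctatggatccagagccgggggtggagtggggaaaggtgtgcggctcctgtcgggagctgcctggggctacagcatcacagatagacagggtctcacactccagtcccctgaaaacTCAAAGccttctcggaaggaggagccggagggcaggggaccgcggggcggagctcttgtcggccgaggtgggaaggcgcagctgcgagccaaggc
Sfrp2: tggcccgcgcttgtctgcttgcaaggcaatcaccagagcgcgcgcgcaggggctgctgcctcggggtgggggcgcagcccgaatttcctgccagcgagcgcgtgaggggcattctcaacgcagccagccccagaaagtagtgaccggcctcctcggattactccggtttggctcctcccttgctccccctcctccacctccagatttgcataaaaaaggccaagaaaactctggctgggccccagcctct
Axin2: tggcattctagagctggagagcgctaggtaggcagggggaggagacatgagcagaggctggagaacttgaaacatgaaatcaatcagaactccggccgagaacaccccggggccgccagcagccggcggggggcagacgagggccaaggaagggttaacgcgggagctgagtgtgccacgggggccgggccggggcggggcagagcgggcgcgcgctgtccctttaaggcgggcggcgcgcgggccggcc
A match of letters describes the sequence and is not a binding site. The 4 promoters were rich in G and C, with 63.6% for Sfrp2, 64.4% for Frzb, 62.8% for Wif1 and 69.2% for Axin2, against a median of 52.4% over all promoters. They held 16, 16, 21 and 24 CpG dinucleotides in the same order, against a median of 6. Axin2, which did not pass the test, thus shared this base composition with the 3 genes that were higher.

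Fibroblast transcripts were higher in the same libraries, in lists chosen with earlier results of these data known. Of all genes tested, 4.72% were higher and 3.19% lower. Of 8 fibroblast markers 7 were higher and none lower, with a median log2 fold change of 0.36, and their summed level was 4465 to 4974 in WT and 5523 to 6176 in Mettl3 KO libraries. Of 8 markers of activated fibroblasts 7 were higher and none lower, with a median of 1.24 and sums of 1475 to 1753 and 2125 to 2795. No marker of either list was at 0 in any library. Levels were also taken relative to the mean log2 level of the 8 fibroblast markers in the same library. On this scale Dkk3 was higher by 1.29, Sfrp2 by 1.03, Frzb by 0.59 and Sfrp1 by 0.39 in Mettl3 KO hearts. For each of these 4 genes the groups did not overlap on this scale (exact permutation test, p = 0.0286, the smallest it can give, with 6 such tests made). Wif1 had a difference of 0.51 and Axin2 of -0.38 (exact permutation test, p = 0.171 each). The share of all genes without overlap relative to the fibroblast markers was not computed. Neither were levels relative to the activated fibroblast markers, whose median change of 1.24 was larger.

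Other cell types were read from their markers, beside 4.72% of all genes tested that were higher and 3.19% that were lower. Epicardial and mesothelial markers had 2 of 6 higher (Upk3b and Aldh1a2), with sums of 112 to 148 in WT and 151 to 190 in Mettl3 KO libraries and Upk1b at 0 in 1 library. None of 4 valve interstitial markers passed, although their sums of 59 to 70 and 86 to 92 did not overlap, with Chad at 0 in a WT and a Mettl3 KO library. Endothelial markers were lower in 4 of 8 and higher in none, with sums of 5172 to 5361 and 4466 to 4867. Smooth muscle and pericyte markers had 1 of 8 lower (sums of 4595 to 4921 and 4206 to 4498), and none of 8 macrophage markers passed (1138 to 1357 and 1172 to 1404). The calls of Upk3b, Aldh1a2, Gsn, Cdh5 and Flt1 among these markers, and of the atrial Myl4 and Myl7 below, were each lost without 1 library or another. With the atrial index as covariate, Kdr, Tie1 and Flt1 of the 4 endothelial calls, the smooth muscle and pericyte call (Abcc9) and the calls of Upk3b, Aldh1a2, Gsn and Ryr2 were lost as well. That index largely followed the genotype, which makes such fits less precise. The part of these cell types in the change of the Wnt modulators was not tested.

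Some atrial transcripts varied between libraries of the same group, and Dkk3, Sfrp2 and Wif1 had their lowest libraries in common with Myl4. Of 7 atrial markers 5 were higher, against 4.72% of all genes tested, and none lower. Their sums were 2169 to 2334 in WT and 2478 to 3386 in Mettl3 KO libraries. Myl4, the atrial essential myosin light chain, was at 112, 114, 17 and 110 in WT libraries and at 113, 269, 287 and 370 in Mettl3 KO libraries. Bmp10, an atrial growth factor, was at 0 in all WT libraries and Mettl3 KO library 1 and at 195, 158 and 358 in Mettl3 KO libraries 2 to 4. WT library 3 was the lowest and Mettl3 KO library 1 the lowest of its group for Myl4, and the same held for Dkk3 (36 and 132), Sfrp2 (18 and 53) and Wif1 (9 and 17), but not for Sfrp1, Frzb or Axin2. Myl7 and Sln were also at 0 in WT library 3. The list did not move as one, since Pam was at 1463 to 1539 in WT and 1777 to 1895 in Mettl3 KO libraries with library 1 at 1840, and Kcnj3 was highest in WT library 3, at 616, and lowest in Mettl3 KO library 1, at 438.

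Mettl3 KO library 1 had WT levels of Myl4, Myl7, Sln and Bmp10, but not of Pam (above the WT range) or of Kcnj3 and Stard10 (below it), and held 132 Dkk3, 172 Sfrp1, 53 Sfrp2 and 63 Frzb, each above the highest WT library. Its Wif1 value of 17 was within the WT range. With an index of the atrial markers (their mean log2 level) as covariate, Dkk3 changed by 0.66 (limma adjusted p = 0.0489), Sfrp2 by 0.92 (adjusted p = 0.0235), Sfrp1 by 0.92 (adjusted p = 0.00105) and Frzb by 1.23 (adjusted p = 0.00440). The estimate was thus smaller for Dkk3 and Sfrp2 and larger for Sfrp1 and Frzb than without the index. Wif1 at 0.20 (limma adjusted p = 0.857) no longer passed. The index, centred on its mean over the 8 libraries, was -2.009 to -0.491 in WT libraries. It was -0.563 in Mettl3 KO library 1 and 1.292 to 1.765 in Mettl3 KO libraries 2 to 4. The index thus largely followed the genotype, so fits with it are less precise and lean on WT library 3 and Mettl3 KO library 1. Whether calls lost with it depend on atrial content was not tested. Without both WT library 3 and Mettl3 KO library 1 the log2 fold changes were 1.57 for Dkk3, 1.34 for Sfrp2, 0.75 for Sfrp1 and 0.93 for Frzb, each still called, whereas Wif1 at 0.86 was not (limma adjusted p = 0.0793).

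**Figure D4:**
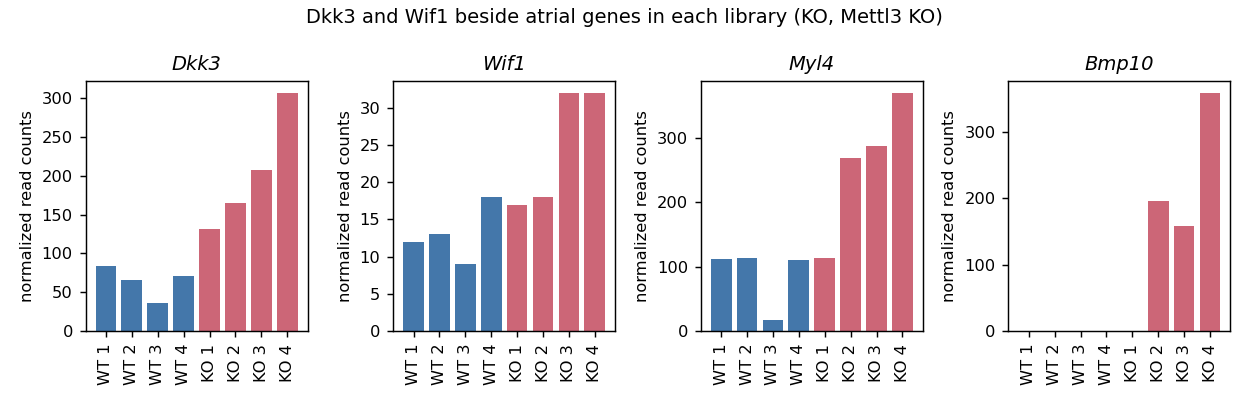
Normalized read counts (vertical axes, linear from 0) of Dkk3, Wif1 and the atrial genes Myl4 and Bmp10 in each WT (blue) and Mettl3 KO library (red, labelled KO). Dkk3 and Myl4 are lowest in WT library 3, at 36 and 17, and highest in Mettl3 KO library 4, at 307 and 370, and Bmp10 is at 0 in Mettl3 KO library 1, where Dkk3 is at 132.

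The rest of the Wnt pathway was read from lists of 100 further genes, of which 85 were in the table and 82 were tested. Of these 8 were higher and 3 lower (13.4%, against 7.91% of all genes tested), and their median log2 fold change was 0.09. Among 8 tested secreted antagonists beyond the 6 genes, Igfbp4, an IGF-binding protein that also binds Frizzled and Lrp6, was the 1 that passed. It was at 346, 315, 344 and 341 in WT libraries and 455, 366, 410 and 422 in Mettl3 KO libraries (log2 fold change 0.29, limma adjusted p = 0.00501). The remaining SFRP genes had low values and were not called. Sfrp4 was at 0 to 5 in WT and 4 to 13 in Mettl3 KO libraries (log2 fold change 1.32, limma adjusted p = 0.120) and Sfrp5 at 5 to 10 and 6 to 23 (log2 fold change 0.65, limma adjusted p = 0.332). Dkk2, the other Dickkopf gene tested, was at 2 to 5 and 1 to 9. Apcdd1, a membrane-bound Wnt inhibitor, was at 19 to 24 and 24 to 28 and did not pass.

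None of 10 tested Wnt ligand genes passed with limma, and 1 had an unadjusted p under 0.05, against 20.6% of all genes tested. Wnt5a, the most abundant ligand by value and a mainly non-canonical one, was at 97, 112, 126 and 86 in WT libraries and 101, 85, 94 and 101 in Mettl3 KO libraries (log2 fold change -0.13). Wnt9a was at 28 to 60 and 40 to 54 and Wnt11 at 11 to 26 and 6 to 18, with overlap in each case. Wnt9a had a log2 fold change of 0.32 and was called in 1 alternative, without both WT library 3 and Mettl3 KO library 1 (0.62, limma adjusted p = 0.0421). Wls, which carries Wnt ligands to the cell surface, was higher at 302, 315, 346 and 338 against 272, 249, 274 and 257 in WT libraries (log2 fold change 0.30, limma adjusted p = 0.00323). This change was not called with the atrial index as covariate (0.24, adjusted p = 0.165).

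Of 16 tested receptors and co-receptors 1 passed, where 7.91% of all genes tested did. Fzd1, a Frizzled receptor, was at 52, 61, 53 and 67 in WT libraries and 84, 83, 94 and 98 in Mettl3 KO libraries (log2 fold change 0.62, limma adjusted p = 0.00133), and was not called with the atrial index as covariate (0.47, adjusted p = 0.153). Lrp6, the main co-receptor, was at 904 to 1007 in WT and 981 to 1145 in Mettl3 KO libraries and did not pass (log2 fold change 0.15, limma adjusted p = 0.0717), but was called with the atrial index as covariate (0.25, adjusted p = 0.0349) and without Mettl3 KO library 2. Kremen1, a receptor for Dickkopf proteins, was at 583 to 619 and 588 to 751 and did not pass (log2 fold change 0.16, limma adjusted p = 0.0961), but was called in the same 2 alternatives (0.34 with the atrial index, adjusted p = 0.00857). Fzd4 was at 416 to 450 and 433 to 463. Of 7 tested genes of the R-spondin axis, which sets how many Frizzled receptors stay at the surface, none passed with limma. An unadjusted p under 0.05 was found for 3 of them, Rspo3, Lgr6 and Lgr4 (20.6% of all genes tested had one). Lgr6 was at 333 to 392 and 366 to 439 and Lgr4 at 227 to 287 and 261 to 325. Znrf3, with an unadjusted limma p of 0.747, was at 95 to 109 and 87 to 119.

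Of 17 cytoplasmic genes 1 was higher and 2 lower, where 4.72% of all genes tested were higher and 3.19% lower. Ctnnb1, which encodes β-catenin, was at 855 ± 32.6 in WT and 854 ± 13.0 in Mettl3 KO hearts (SD, n = 4 each). Tnks2, a tankyrase that marks Axin proteins for degradation, fell by 0.22 on the log2 scale, with 756 to 778 in WT and 639 to 678 in Mettl3 KO libraries (limma adjusted p = 0.00202). Ctnnbip1, an inhibitor of β-catenin binding to TCF factors, fell by 0.38, with 132 to 164 in WT and 106 to 120 in Mettl3 KO libraries (limma adjusted p = 0.00895), and with the atrial index as covariate the changes were -0.20 for Tnks2 (adjusted p = 0.0873) and -0.31 for Ctnnbip1 (adjusted p = 0.237), no longer called. The Ctnnbip1 call was also lost without both WT library 3 and Mettl3 KO library 1. Apc, the large scaffold of the destruction complex, was at 1161 to 1200 and 1211 to 1416 (log2 fold change 0.15, limma adjusted p = 0.0429), a call that was lost in 10 of 20 alternatives, among them without any 1 library other than Mettl3 KO library 2. The kinase gene Csnk1a1 was at 894 to 1031 and 914 to 1028.

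Of 13 nuclear effectors 2 were higher and 1 lower, where 4.72% of all genes tested were higher and 3.19% lower. Pygo1, a co-activator in the β-catenin complex, was at 243 to 292 in WT and 345 to 383 in Mettl3 KO libraries (log2 fold change 0.44, limma adjusted p = 0.000117). Bcl9l, which links Pygo proteins to β-catenin, was at 260 to 323 and 350 to 369 (log2 fold change 0.34, limma adjusted p = 0.00192). The transcription factor gene Tcf7l2 was at 219 to 280 and 185 to 221 (log2 fold change -0.26, limma adjusted p = 0.0447), with overlap, and was not called in 9 of 20 alternatives, among them without any 1 library other than WT library 1. Tle5, of the Groucho co-repressor family, was at 610 to 651 and 600 to 687.

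Most target genes did not pass. Of 15 tested targets beyond Axin2, 2 were higher, none lower and 13 did not pass, where 4.72% of all genes tested were higher, and their median log2 fold change was 0.25. Bambi, a decoy receptor of the BMP and TGF-β pathway that β-catenin induces, was at 43, 44, 38 and 40 in WT libraries and 109, 108, 77 and 77 in Mettl3 KO libraries (log2 fold change 1.13, limma adjusted p = 1.09e-05). Ccn5, a matricellular protein, was at 0, 3, 4 and 7 and at 9, 11, 10 and 20, close to the floor of 3 reads in WT (limma adjusted p = 0.0183, not called in 5 of 19 alternatives, among them without WT library 1 and without Mettl3 KO library 2, 3 or 4). The more abundant targets Ccnd1, at 284 to 363 and 281 to 334, and Cd44, at 125 to 153 and 120 to 162, overlapped between the groups, as Axin2 did.

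**Figure D5:**
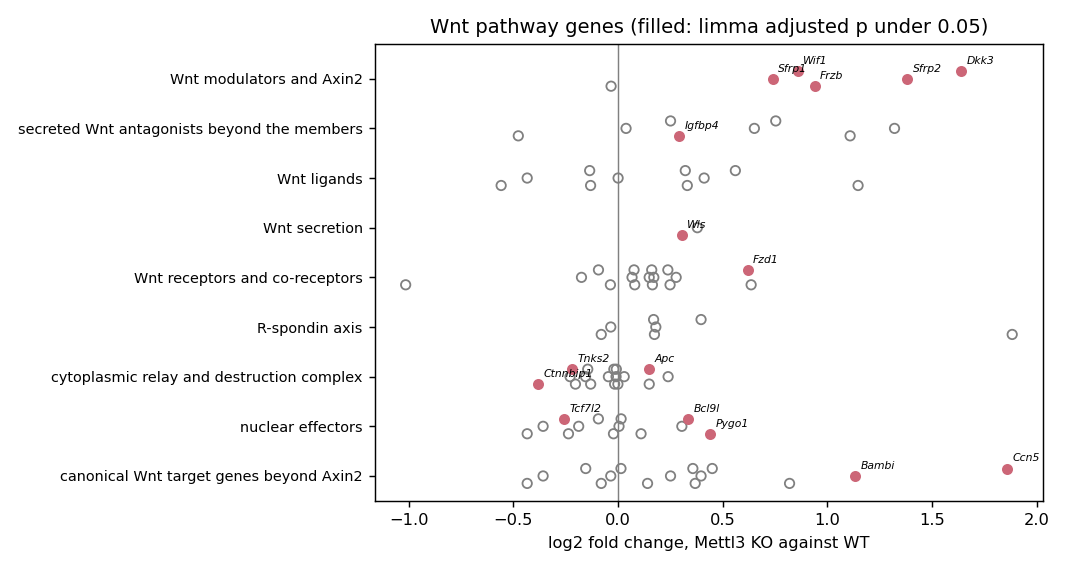
Log2 fold change, Mettl3 KO against WT (horizontal axis), of every tested gene of the Wnt pathway lists, 1 point per gene and 1 line per list. Filled points had a limma adjusted p under 0.05 and are named, and the 5 filled points among the modulators lie between 0.74 and 1.64.

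Genes whose pattern over the 8 libraries was most like that of each of the 5 genes with a mean of at least 20 were found by Pearson correlation of log2(value + 1) among 12024 genes with a mean of at least 20. The 8 libraries hold both genotypes, so genes that differ between the genotypes correlate through that difference, and the coefficients are a description. For Dkk3 they were Pkhd1l1 (r = 0.985), Cd2bp2 (r = 0.981) and Piezo2 (r = 0.978), and Piezo2, a mechanically gated channel, was at 29, 19, 11 and 24 in WT libraries and 43, 43, 52 and 62 in Mettl3 KO libraries. Its lowest value was in WT library 3 and its highest in Mettl3 KO library 4, as for Dkk3. Pkhd1l1 was also among the 3 genes nearest to Sfrp2 (r = 0.986), beside Spred1 (r = 0.988), an inhibitor of Ras signalling, and Snrpd3 (r = 0.985), a core splicing protein. Nearest to Sfrp1 were Pgrmc2 (r = 0.987), Tmem100 (r = 0.985) and the interleukin receptor gene Il13ra1 (r = 0.979).

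Near to Frzb were Ccdc80 (r = 0.987), a matrix protein, and Prkg1 (r = 0.981), the cGMP-dependent kinase. Ccdc80 was at 488, 522, 541 and 523 in WT libraries and 775, 643, 762 and 729 in Mettl3 KO libraries, with Mettl3 KO library 1 highest and library 2 lowest of its group, as for Frzb. Nearest to Axin2 were Acvr1 (r = 0.953), a BMP receptor, Yrdc (r = 0.948) and Zfhx3 (r = 0.946), and in this case the likeness lay within the groups. Acvr1 was at 120, 121, 119 and 104 in WT libraries and 119, 107, 115 and 121 in Mettl3 KO libraries, low where Axin2 was low.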

How the data were processed

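RNA-seq of mouse heart tissue was stranded and single-end. By the submitters' processing notes and the methods of the study, the reads were trimmed by the authors with Trimmomatic 0.39 and aligned to mm39 with STAR 2.7.11a, duplicates were removed with Picard 3.1.1, and counts per gene and strand from featureCounts 2.0.4 were normalized with DESeq2 1.36.0. The values the authors deposited are such normalized read counts rounded to whole numbers, a score that is not raw counts, so a count model was not used. Removing duplicates and multi-mapping reads lowers short abundant transcripts and genes with near-identical copies.

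The 20313 genes with a mean of at least 1 were tested and 2732 were not. Values entered the model as log2(value + 1), with genotype as the single term and a trend of the variance on the mean (limma 3.58.1, R 4.3.3). Tests were two-sided and p was adjusted by Benjamini-Hochberg over all genes tested. A log2(value + 1) fold change understates the change of low genes. The fit and the recovery of reads were tested on simulated data. The number of reads limits the precision of low genes. Values matched whole reads at the estimated factors in 99.6% to 100% of all 23045 genes listed. A factor below 1 gives 100% by construction, so the match is no check of the recovery in such libraries.

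Groups came from the labels. The 6 genes and the pathway and marker lists were chosen with earlier results of these data known. Named were the 6 genes, in each pathway list the called genes and the 3 with the highest means, Mettl3 and Esr1, markers at 0 in any library, and the 3 genes most correlated with each of the 6 that had a mean of at least 20, of which 1 is not reported here. Sfrp4, Sfrp5, Dkk2, Myl4, Upk3b, Aldh1a2, Gsn, Cdh5, Flt1, Kdr, Tie1, Abcc9, Ryr2, Pam, Kcnj3, Stard10, Rspo3 and the genes singled out for lack of overlap were added after their values were seen. Lists are described by counts and medians, with no test of a list. Exon lengths came from a GENCODE annotation of GRCm38 by gene identifier. Alternatives were other pseudocounts, filters and scalings, voom, the replicate number as a block, each library left out, an exact permutation test and an index of atrial markers. Voom on recovered reads, leaving out both WT library 3 and Mettl3 KO library 1, and levels relative to fibroblast markers were chosen after seeing the data.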

Additional observations from a re-analysis of the deposited data

Results flagged for a closer look

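The highest or lowest library of a group was singled out where its distance from the next library, as a share of the group's range, exceeded the 95% critical value of Dixon for 4 samples. The search covered 19 genes and the recovered reads in both genotypes, 40 groups, of which 2 were marked where chance gives about 2. Axin2 in WT libraries had a share of 0.938, with replicate 4 at 26 against 41 to 42 in the others. Igfbp4 in WT libraries had a share of 0.839, with replicate 2 at 315 against 341 to 346.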

How the results depend on the processing

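Dkk3, Sfrp1, Sfrp2 and Frzb kept their direction and their call in each of 22 alternatives, with log2 fold changes of 0.66 to 1.82, 0.39 to 0.92, 0.92 to 1.46 and 0.59 to 1.23. The lowest for Sfrp1 and Frzb were relative to fibroblast markers. With the exact permutation tests, also those relative to fibroblast markers, a call was an unadjusted p under 0.05. Any gene without overlap meets that, with an exact permutation p of 0.0286. The number of the 6 genes called was 4 or 5 in each of 20 alternatives. Wif1 was not called with upper quartile scaling (0.84), total scaling (0.85), voom (0.87), voom on recovered reads (0.92), the atrial index (0.20), the replicate block (0.86, limma adjusted p = 0.0649), the exact permutation test (0.86, p = 0.0857), relative to fibroblast markers (0.51) or without both WT library 3 and Mettl3 KO library 1 (0.86), and leaving out each library gave 0.71 to 1.02. The cause was not tested. Axin2 was not called in any of 22 alternatives and turned sign with the atrial index (0.17) and in 4 of the 8 fits without a library (-0.20 to 0.17). With the atrial index, Myl7 (-0.65) and Myl4 (-0.31), which are part of it, and Wnt5a (0.070) turned sign, and 954 genes passed, 617 of them shared with the 1607. Leaving out each library gave 1005 to 1593 genes, the fewest without Mettl3 KO replicate 3.

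Same-numbered libraries of both genotypes did not clearly deviate together (correlations of 0.0522, 0.0421, -0.0414 and 0.0878). Such correlations cannot exclude a pairing by number, which the labels do not state. WT library 3 correlated best with Mettl3 KO library 1 (0.198). With the replicate block 1346 genes passed, and among the 6 genes Wif1 was the 1 call that changed.

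At a mean of 13.0 to 24.8, Wif1 rests on about as many reads per library, and ligands and targets below the floor of 3 reads could not be compared at this depth.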

Other observations

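Of the pathway genes, 5 did not overlap between the genotypes and did not pass limma's adjusted threshold, and they were picked after their values were seen. They were 6.10% of the 82 pathway genes tested, against 4.83% of all genes tested that did not overlap and did not pass. With the called ones included, 15 of the 82 (18.3%) did not overlap, against 11.5% of all genes tested. Sost, a secreted antagonist known from bone, was at 7, 9, 4 and 8 in WT libraries and 10, 14, 10 and 15 in Mettl3 KO libraries. Tcf7l1, a TCF factor that often acts as a repressor, was at 84, 71, 85 and 60 in WT libraries and 91, 94, 95 and 88 in Mettl3 KO libraries. The tankyrase gene Tnks was at 790, 750, 778 and 782 and at 667, 667, 732 and 740, lower in Mettl3 KO hearts as Tnks2 was. Gsk3a, a kinase of the destruction complex, was at 128, 124, 136 and 125 and at 111, 111, 113 and 102. The receptor gene Fzd9 was at 5, 4, 3 and 4 and at 1, 2, 2 and 1, at or near the floor of 3 reads.

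Rspo3, a ligand that enhances Wnt signalling, was at 0, 0, 0 and 4 in WT libraries and 1, 6, 5 and 10 in Mettl3 KO libraries (limma adjusted p = 0.0510), with overlap.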
